A study of Mus musculus with 2 samples.

Results

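Distal convoluted tubule (DCT) cells were taken from 2 single-cell libraries of mouse kidney by the transcript of Slc12a3, which encodes the thiazide-sensitive sodium chloride cotransporter NCC. A barcode was kept as DCT when it had at least 300 genes and at most 80% of its unique molecular identifiers (UMIs, 1 per captured RNA molecule) from mitochondrially encoded genes, at least 2 Slc12a3 UMIs making up at least 5 of every 10000 non-mitochondrial UMIs, and fewer than 25 per 10000 from Slc34a1 and Lrp2, transcripts of the proximal tubule. The rule kept 119 of the 3534 barcodes past the first 2 limits, out of 3691 in all. Of these, 63 came from the CA3 library and 56 from the vehicle library. Because Slc12a3, Slc34a1 and Lrp2 chose the cells, their values are given as a description.

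The study measured kidney cells after rhabdomyolysis, a breakdown of skeletal muscle that floods the kidney with myoglobin, with the stated aim of finding pathways in acute kidney injury and the chronic disease that can follow. The CA3 library held cells of female C57Bl/6 mice of 9 weeks with rhabdomyolysis that received CA3, a compound described as blocking the transcriptional coactivator YAP1. The vehicle library held cells of mice of the same sex, age and strain with rhabdomyolysis that received vehicle. Both groups carried the alleles Pax8.rtTA;TetO.Cre;R26.FUCCI2aR, in which a Pax8-driven, doxycycline-dependent transactivator in renal tubule cells turns on Cre and with it a fluorescent cell cycle reporter at the Rosa26 locus. There was no uninjured group among these libraries. The sources used here do not state the dose of CA3, the time after injury, any use of doxycycline or the number of animals behind a library. With 1 library per treatment, CA3 was compared with vehicle without a test, and the intervals given for those ratios are 95% intervals for counting error only.

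The DCT is a short segment between the thick ascending limb (TAL) and the connecting tubule. Its cells take up sodium and chloride through NCC, whose activity is set by the WNK kinases and their partner kinase SPAK, and they reabsorb magnesium through the channel Trpm6. In mice the early part of the segment holds the cytosolic calcium buffer parvalbumin (Pvalb), and the late part holds calbindins and, towards the connecting tubule, subunits of the epithelial sodium channel ENaC.

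The median Slc12a3 level of the kept cells was 57.3 per 10000 non-mitochondrial UMIs in the CA3 library, with a lowest value of 5.05 and a highest of 308. In the vehicle library the median was 111.6, the lowest value 6.57 and the highest 272. The nearest barcodes outside the Slc12a3 limit had 3.8 in the CA3 library and 3.97 in the vehicle library. The highest Slc34a1 and Lrp2 level among kept cells was 24.8 in the CA3 library and 13.0 in the vehicle library. Another 10 barcodes of the CA3 library and 5 of the vehicle library passed the Slc12a3 limits and were left out by the proximal limit, the nearest at 27.6 and 26.01. Summed over the kept cells, Slc12a3 stood at 11586 with CA3 and 11236 with vehicle, in UMIs per 1000000 non-mitochondrial UMIs (CPM). The gate therefore took cells over a wide range of Slc12a3 in both libraries, with nearly equal sums.

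The other DCT markers were in place. Pvalb UMIs were found in 24 of 63 DCT cells of the CA3 library (38.1%) and 28 of 56 of the vehicle library (50%), against 1.01% and 0.686% of proximal tubule barcodes (Slc34a1 and Lrp2 at least 25) in those libraries. Trpm6 UMIs were found in 50.8% of DCT cells of the CA3 library and 62.5% of the vehicle library, against 0.845% and 0.824% of proximal barcodes. Calb1, encoding calbindin-D28k, had UMIs in 76.2% and 89.3% of DCT cells, against 20.5% and 15.2% of proximal barcodes, so detection of Calb1 alone did not mark DCT cells. The water channel transcript Aqp4 of principal cells had 0 UMIs in DCT cells of both libraries. That allows up to 3 UMIs in sums of 363703 UMIs with CA3 and 598436 with vehicle. Other principal cell transcripts were present, with 2 UMIs of Aqp2 with CA3 and 36 with vehicle. Hsd11b2 had 60 UMIs with CA3 and 196 with vehicle. Of 11 connecting tubule and principal cell markers, 3 had 0 UMIs with CA3 and 1 with vehicle.

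Some DCT barcodes also held RNA of other cells. Slc12a1, the TAL cotransporter, had 15 UMIs in DCT cells of the CA3 library and 443 in those of the vehicle library, of which 327 lay in 1 barcode of 40905 UMIs. The 7 endothelial markers summed to 525 CPM with CA3 and 8.36 CPM with vehicle. Emcn, Kdr and Flt1 had 61, 47 and 23 UMIs in the CA3 library and 0 each in the vehicle library, and 3 CA3 barcodes reached 10 endothelial UMIs per 10000. The 9 intercalated cell markers summed to 146 CPM with CA3 and 281 CPM with vehicle. Most of these UMIs were of 1 marker, Atp6v1b1, with 46 UMIs with CA3 and 102 with vehicle. Whether DCT cells made it themselves was not tested. The 13 proximal markers summed to 1551 CPM with CA3 and 1095 CPM with vehicle. The 7 TAL markers summed to 3002 CPM with CA3 and 7697 CPM with vehicle, most of it Umod. The 11 connecting tubule and principal cell markers summed to 15458 CPM with CA3 and 17064 CPM with vehicle, most of it S100g. Whether DCT cells made this Umod and S100g RNA themselves was not tested. Of the 7 myeloid markers, summed levels were 55.0 CPM with CA3 and 23.4 CPM with vehicle, of the 7 lymphocyte markers 11 CPM with CA3 and 1.67 CPM with vehicle, and of the 4 red cell markers 41.2 CPM with CA3 and 23.4 CPM with vehicle. In all, 4 DCT barcodes of each library had at least 10 per 10000 of Slc12a1, endothelial or intercalated RNA. The counts over all genes below are also given without barcodes past that limit.

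Depth differed between the libraries. DCT cells had a median of 4057 non-mitochondrial UMIs in the CA3 library (1257 to 21614) and 7377.5 in the vehicle library (1180 to 40905). Mitochondrially encoded genes held a median of 45.8% of UMIs in DCT cells of the CA3 library and 37.8% in those of the vehicle library, and 26 and 19 cells were above 50%. These mitochondrial shares were above those of connecting tubule and principal cells, at 28.8% and 19.3%. The part of depth and of mitochondrial share in the differences below was not tested except where a value is given. The libraries shared 1 cell barcode, which was not a DCT cell.

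**Figure D1:**
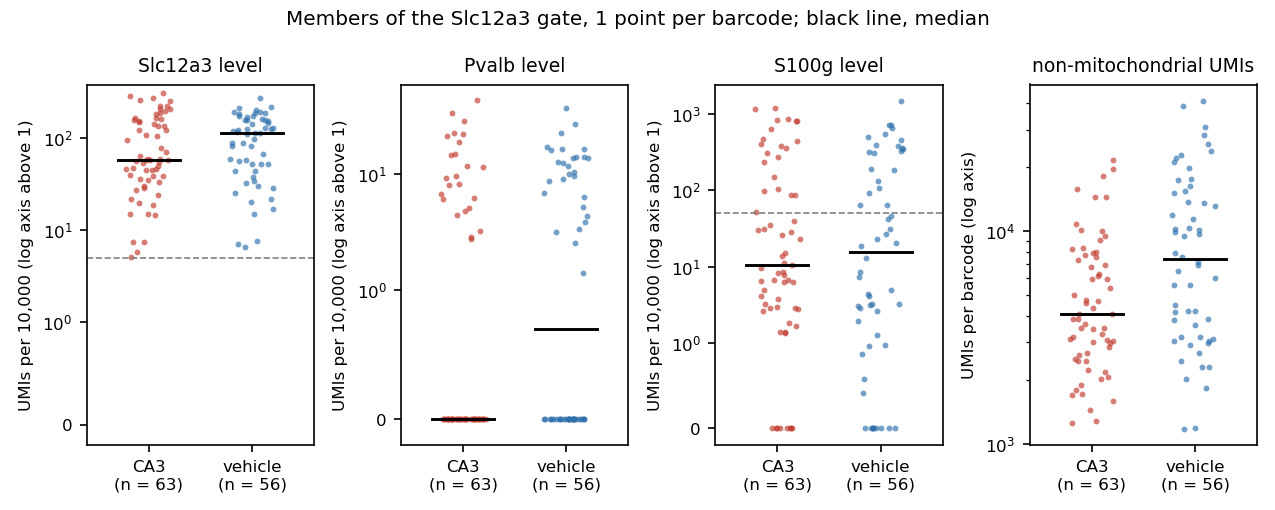
Each point is 1 DCT cell, CA3 cells (n = 63) on the left and vehicle cells (n = 56) on the right of each panel, with the level of Slc12a3, Pvalb or S100g in UMIs per 10000 non-mitochondrial UMIs, or the number of non-mitochondrial UMIs, on the vertical axis and the median as a black line. Dashed lines mark the Slc12a3 limit of 5 and the S100g split at 50, and the median depth was 4057 UMIs with CA3 and 7377.5 with vehicle.

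Slc12a3 lies on mouse chromosome 8 (94329201 to 94366214, plus strand, GRCm38), Trpm6 on chromosome 19 (18749983 to 18892511, plus strand) and Pvalb on chromosome 15 (78191114 to 78206400, minus strand). The 250 bases before the RefSeq transcription start of these 3 genes, which mark the segment and its early part, are printed here for chr8:94328958-94329207, chr19:18749480-18749729 and chr15:78206401-78206650, each 5′ to 3′ on the gene's own strand. RefSeq lists another start for Pvalb (chr15:78204238-78204487); the window shown adjoins the start given above, and each of the 2 holds 1 motif match. Capitals mark the motif GCCNNNGGC, bound by TFAP2 factors such as Tfap2b, a transcription factor of the distal nephron. The motif reads the same on both strands, and each window holds 1 match.
Slc12a3: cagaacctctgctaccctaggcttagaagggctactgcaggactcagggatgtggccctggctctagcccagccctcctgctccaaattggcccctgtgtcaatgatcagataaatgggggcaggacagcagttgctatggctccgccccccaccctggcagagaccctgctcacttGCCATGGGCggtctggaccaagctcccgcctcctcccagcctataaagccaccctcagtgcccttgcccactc
Trpm6: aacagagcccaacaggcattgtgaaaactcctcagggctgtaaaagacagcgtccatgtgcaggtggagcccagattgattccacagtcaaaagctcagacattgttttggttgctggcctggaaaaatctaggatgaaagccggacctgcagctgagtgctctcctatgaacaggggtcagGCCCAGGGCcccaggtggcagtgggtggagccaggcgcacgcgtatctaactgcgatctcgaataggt
Pvalb: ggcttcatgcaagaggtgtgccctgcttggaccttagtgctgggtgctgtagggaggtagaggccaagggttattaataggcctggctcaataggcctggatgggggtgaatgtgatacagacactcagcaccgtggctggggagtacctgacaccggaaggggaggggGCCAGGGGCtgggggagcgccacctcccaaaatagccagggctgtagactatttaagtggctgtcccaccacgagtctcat
The same motif occurred in 13.7% of all 32851 RefSeq windows of this length and in 20.9% of the 9293 windows of genes tested below. It occurred in 18.8% of windows of genes higher in DCT and 20.1% of windows of genes lower in DCT, so its frequency among DCT-enriched genes was not above that of the genes tested.

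DCT cells were set against connecting tubule and principal cells (CNT/PC), the next segments along the nephron, chosen by Aqp2 and Hsd11b2 (at least 2 UMIs and 5 per 10000, below the same proximal limit and outside the DCT gate). There were 30 such cells in the CA3 library and 34 in the vehicle library. These CNT/PC cells also held intercalated cell RNA in both libraries, and the markers differed in which library held more. Slc26a4 had 76 UMIs in the CA3 library and 1 in the vehicle library, against 0 in DCT cells of both. Atp6v1g3 had 130 UMIs with CA3 and 225 with vehicle, against 1 and 30 in DCT cells. Atp6v0d2 had 16 UMIs with CA3 and 72 with vehicle, against 4 and 12. UMIs were summed per class and library and fitted with edgeR's quasi-likelihood test with the library as a block. Of 9093 genes with at least 20 UMIs, 591 were higher in DCT (6.5%) and 614 were lower (6.75%) at an adjusted p below 0.05, and 1187 of the 1205 calls had the same direction in both libraries. The test rests on 2 libraries, with 1 residual degree of freedom per gene and a median of 9093 in total, so the spread behind the SE and p-values below is shared by genes (common biological coefficient of variation 0.126) and not measured gene by gene. DESeq2 called 117 genes higher and 101 lower, all 218 of them among edgeR's calls in the same direction. Without the barcodes holding TAL, endothelial or intercalated RNA, edgeR called 464 higher and 500 lower. That limit was applied to CNT/PC cells as well as DCT cells, so it changed both classes. List counts without those barcodes are given below where they moved by 1.5 times or more. Without TMM scaling the median log2 difference over all genes moved to -0.17, against -0.01 with it, and the split was 406 higher and 812 lower, so each difference below is relative to that median. With CNT/PC cells chosen by Aqp2 alone, edgeR called 539 higher and 574 lower. Of 9 tested intercalated markers 6 were lower in DCT cells (median log2 difference -2.55), against 1 of 4 (median -0.39) with Aqp2 alone. Without those barcodes it was 1 of 2, but these barcodes were removed by intercalated markers themselves. That last count therefore cannot show how these markers differ between the classes. Genes that accompany Slc12a3 or Aqp2 in the same cells were bound to differ between classes gated on them, and the gate genes themselves were not tested.

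The genes most enriched in DCT over CNT/PC cells, a ranking in which TAL cells played no part, included Pvalb. It had 536 CPM in DCT cells of the CA3 library and 678 CPM in those of the vehicle library, against 8.14 and 0 CPM in CNT/PC cells. Within the CA3 library that was a ratio of 65.8 (25.3 to 244 for counting error), and within the vehicle library at least 149.8-fold, taking 3 UMIs per library as the floor. Abca13, encoding an ABC transporter, had 938 CPM with CA3 and 1166 CPM with vehicle in DCT cells against 30.5 and 48.3 CPM in CNT/PC cells (log2 difference 4.88 ± 0.26 SE). It was found in 77.8% of DCT cells of the CA3 library and 85.7% of the vehicle library, more widely than Pvalb. Ank2, the membrane adaptor ankyrin-B, had 88.0 CPM with CA3 and 70.2 CPM with vehicle in DCT cells and no UMI in CNT/PC cells, which makes it at least 14.4-fold higher in the CA3 library and at least 15.5-fold higher in the vehicle library. DESeq2 did not call Ank2 (adjusted p = 0.53). Fabp3, a fatty acid binding protein of heart and muscle, had 630 CPM with CA3 and 506 CPM with vehicle against 34.6 and 58.9 CPM. Sfrp1, a secreted antagonist of Wnt ligands, had 1199 CPM with CA3 and 1867 CPM with vehicle against 140.5 and 216 CPM. Both differed by more than 3 log2 units (3.70 ± 0.24 and 3.26 ± 0.22 SE). Uroc1, the histidine-degrading enzyme urocanase, had 170.5 CPM with CA3 and 196 CPM with vehicle against 14.3 and 13.6 CPM. The collagen gene Col5a2, the regulator Fam107a, the homeobox factor Prox1 and Lhx1os completed the 12 leading genes together with Ppp1r1a and Trpm6, described below.

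The 12 genes most depleted in DCT cells included Fxyd4, Aqp3, Aqp4 and Avpr2, genes of water and salt transport in principal cells. Fxyd4, a regulator of the sodium pump, had 0 CPM with CA3 and 46.8 CPM with vehicle in DCT cells against 837 and 2061 CPM in CNT/PC cells. The 46.8 CPM of the vehicle library lay in 4 cells (7.14%), with 96.4% of the UMIs in the 3 highest. Aqp3, the basolateral water channel, had 0 CPM with CA3 and 30.1 CPM with vehicle against 790 and 1039 CPM, and the vasopressin receptor Avpr2 had 2.75 CPM with CA3 and 5.01 CPM with vehicle against 112.0 and 183 CPM. Aqp4 had 0 CPM in both libraries against 52.9 and 396 CPM, at least 6.42-fold lower in the CA3 library and at least 78.9-fold lower in the vehicle library. Apela, encoding a peptide ligand of the apelin receptor, had 11 CPM with CA3 and 18.4 CPM with vehicle against 293 and 607 CPM. The others of the 12 were Tmem150c, Spink8, Mcoln3, Fam174b, Tmem229a, Adh1 and Ackr3, the last 6 of which also passed DESeq2.

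**Figure D2:**
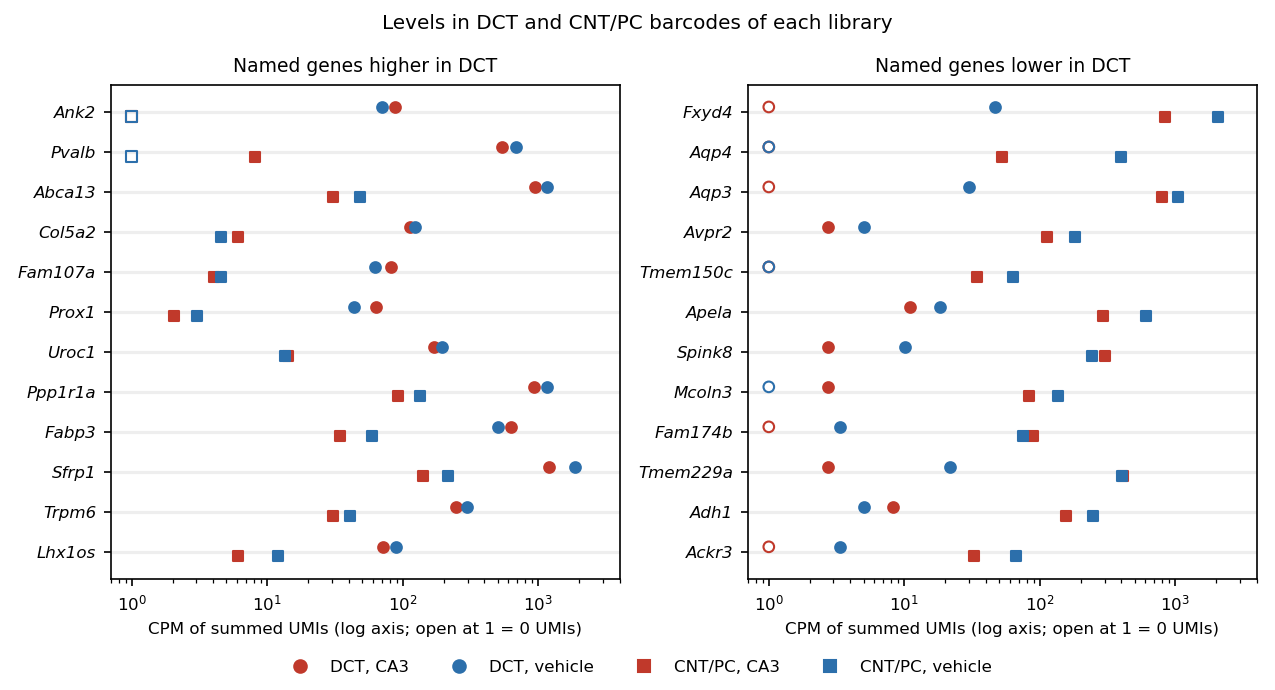
Summed level in CPM (log axis) of the 12 genes most enriched and the 12 most depleted in DCT over CNT/PC cells. DCT cells are circles and CNT/PC cells squares, with the CA3 library in red and the vehicle library in blue. Open marks at 1 stand for sums of 0 UMIs. Pvalb stood at 536 and 678 CPM in DCT cells against 8.14 and 0 CPM in CNT/PC cells, and Aqp4 at 0 in DCT cells against 52.9 and 396 CPM.

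Regulators of NCC were the first group. Of 23 genes of the WNK, SPAK and NCC list, all tested, 10 were higher in DCT cells and 2 lower (6 and 1 with DESeq2), against 6.5% and 6.75% of all genes, and the list's median log2 difference was 0.39. Wnk1, the kinase of which the kidney makes a short distal form, had 3475 CPM with CA3 and 4164 CPM with vehicle in DCT cells, against 780 and 1279 CPM in CNT/PC cells (2.08 ± 0.20 SE, edgeR adjusted p = 3.8e-22). Wnk4, which acts on NCC through SPAK, had 478 CPM with CA3 and 578 CPM with vehicle against 208 and 224 CPM (1.45 ± 0.21 SE). Klhl3, the adaptor that marks WNK kinases for degradation, had 519.7 CPM with CA3 and 595 CPM with vehicle against 112.0 and 110.2 CPM (2.49 ± 0.22 SE). These rose together with the protein phosphatase inhibitor Ppp1r1a, which had 924 CPM with CA3 and 1165 CPM with vehicle against 91.6 and 134 CPM (3.37 ± 0.22 SE). Fxyd2, a regulator of the sodium pump, was higher by 2.02, and Bsnd, which encodes barttin, by 0.82. Bsnd and the deubiquitinase Usp2 (higher by 0.83) did not pass DESeq2. Within the CA3 library the counting intervals of their ratios included 1 (Bsnd 0.8544 to 2.135, Usp2 0.7715 to 1.608). Within the vehicle library they did not. Stk39, which encodes SPAK itself, had 159.5 CPM with CA3 and 154 CPM with vehicle in DCT cells against 140.5 and 162 CPM and did not pass the test.

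The aldosterone-induced kinase Sgk1 and the ubiquitin ligase Nedd4l, which Sgk1 holds in check, were the lower members. Sgk1 had 49.5 CPM with CA3 and 30.1 CPM with vehicle in DCT cells, against 426 and 230 CPM in CNT/PC cells (-2.86 ± 0.26 SE). Nedd4l had 46.7 CPM with CA3 and 78.5 CPM with vehicle against 118 and 174 CPM (-1.05 ± 0.26 SE), and DESeq2 did not call it. Over the 14 tested genes of the aldosterone, ENaC and potassium list, which shares Sgk1 and Nedd4l, 2 were higher and 7 lower (1 and 5 with DESeq2), against 6.5% and 6.75% of all genes, with the comparator's gate genes left out. The ENaC subunits Scnn1b and Scnn1g were lower by 2.20 and 3.06 log2 units. The third subunit, Scnn1a, had 272 CPM with CA3 and 274 CPM with vehicle in DCT cells against 403 and 310 CPM and did not pass. Kcnj1, the potassium secretion channel ROMK, was higher by 0.91 ± 0.19 SE, with 852 CPM with CA3 and 1044 CPM with vehicle against 544 and 575 CPM. Tsc22d3, a steroid-induced gene, was higher by 1.29 with edgeR and not with DESeq2. Its ratio was 1.247 (0.52 to 2.964 for counting error) within the CA3 library and 3.952 (1.662 to 10.82) within the vehicle library.

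Magnesium handling genes were the next group. Of 15 tested, 8 were higher in DCT cells and 2 lower (6 and 0 with DESeq2), against 6.5% and 6.75% of all genes, and the median log2 difference was 1.39. Trpm6, the apical magnesium channel, had 248 CPM with CA3 and 297 CPM with vehicle in DCT cells against 30.5 and 40.8 CPM in CNT/PC cells (3.08 ± 0.26 SE, edgeR adjusted p = 2.2e-29). Its partner Trpm7 had 610.4 CPM with CA3 and 533 CPM with vehicle against 93.6 and 124 CPM, and Cnnm2, linked to basolateral magnesium transport, had 236 CPM with CA3 and 232 CPM with vehicle against 40.7 and 60.4 CPM. Egf, whose peptide stimulates Trpm6, had 1592 CPM with CA3 and 4515 CPM with vehicle against 493 and 735 CPM. Pcbd1, a transcriptional coactivator, had 421 CPM with CA3 and 384 CPM with vehicle against 144 and 196 CPM. Umod, encoding the TAL protein uromodulin, was higher by 1.44 ± 0.20 SE and not called by DESeq2. Umod is also a TAL marker, and 22 DCT cells of the CA3 library and 20 of the vehicle library had at least 25 Umod UMIs per 10000. Without cells at 25 per 10000 or more of Slc12a1 and Umod, 7 of 13 magnesium genes remaining in the test were higher and 2 lower, and without the barcodes holding TAL, endothelial or intercalated RNA 8 of 14 were higher and 1 lower.

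Calcium handling did not separate the segments in a common direction. Of 12 tested genes, 3 were higher and 3 lower (2 and 1 with DESeq2), against 6.5% and 6.75% of all genes. Of 11 calcium genes tested without the barcodes holding other cells' RNA 1 was higher and 3 were lower. Calb1 had 6346 CPM with CA3 and 7712 CPM with vehicle in DCT cells against 5244 and 3923 CPM in CNT/PC cells (0.78 ± 0.20 SE). The parathyroid hormone receptor Pth1r had 412 CPM with CA3 and 388 CPM with vehicle against 173 and 163 CPM (1.41 ± 0.21 SE). The vitamin D receptor Vdr was higher by 0.57 with edgeR alone. The apical calcium channel Trpv5 was lower by 1.03 and the protease Klk1 by 0.90, of which DESeq2 called Klk1. Within the CA3 library the Trpv5 ratio was 0.193 (0.104 to 0.333 for counting error). Within the vehicle library it was 0.825 (0.5455 to 1.24), so the Trpv5 call rests on the CA3 library. S100g, encoding calbindin-D9k, had 15037 CPM with CA3 and 16192 CPM with vehicle in DCT cells against 35298 and 18504 CPM and did not pass the test (edgeR adjusted p = 0.079). The sodium-calcium exchanger Slc8a1 had 333 CPM with CA3 and 627 CPM with vehicle against 326 and 446 CPM and did not pass either.

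Transcription factors of the distal nephron divided the segments. Of 22 tested, 6 were higher in DCT cells and 8 lower (3 and 3 with DESeq2), against 6.5% and 6.75% of all genes. The counts were 4 higher and 8 lower without the barcodes holding other cells' RNA. Sall3, a zinc finger factor, had 107.2 CPM with CA3 and 122.0 CPM with vehicle in DCT cells against 10.2 and 19.6 CPM in CNT/PC cells (3.04 ± 0.35 SE). The homeobox factors Lhx1 and Emx1 were higher by 2.60 and 1.89, and the nuclear receptor Esrrb had 30.2 CPM with CA3 and 41.8 CPM with vehicle against 2.04 and 3.02 CPM. Tfap2b and Hoxd8 were higher by 0.65 and 0.69 with edgeR alone. Gata2, a factor of the collecting duct, had 13.8 CPM with CA3 and 23.4 CPM with vehicle against 395 and 284 CPM (-3.89 ± 0.30 SE). The epithelial ETS factors Ehf and Elf3 were lower by 3.998 and 1.62. Elf5, also lower, had 0 UMIs in DCT cells of both libraries, against 5 with CA3 and 28 with vehicle in CNT/PC cells. Taking 3 UMIs as the floor, Elf5 was at least 1.234-fold lower in the CA3 library and at least 8.435-fold lower in the vehicle library. Tfcp2l1, Gata3, Pax2 and Pax8 were lower by 0.98 to 1.57.

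Genes of the tricarboxylic acid cycle and the nuclear-encoded respiratory chain were higher in DCT cells as a group. Of 26 tested, 23 were higher and 0 lower, against 6.5% of all genes higher, and the median log2 difference was 0.77. DESeq2 called 12 higher and 0 lower, and edgeR without TMM scaling called 18 higher. With at most 50% mitochondrial UMIs per cell and at least 500 genes, 19 were higher. Uqcrq, a subunit of complex III, had 2021 CPM with CA3 and 1775 CPM with vehicle in DCT cells, against 961 and 803 CPM in CNT/PC cells (1.26 ± 0.19 SE, edgeR adjusted p = 5.0e-09). Sdhb, the iron-sulphur subunit of complex II, had 522 CPM with CA3 and 551 CPM with vehicle against 240 and 311 CPM, and cytochrome c (Cycs) had 1009 CPM with CA3 and 914 CPM with vehicle against 574 and 494 CPM. Citrate synthase (Cs) had 146 CPM with CA3 and 170.4 CPM with vehicle against 173 and 152 CPM and did not pass. In glycolysis, 2 of 14 tested genes were higher (Pkm by 1.01 and Ldhb by 0.53) and 1 was lower (Ldha, by 0.71), and DESeq2 called Pkm alone. Without the barcodes holding other cells' RNA 1 glycolysis gene was higher and 0 lower. The higher mitochondrial share of DCT cells, 45.8% and 37.8% against 28.8% and 19.3%, moved with this group, and its part in the result was tested only by the 50% limit above. Mitochondrially encoded genes were outside all totals.

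**Figure D3:**
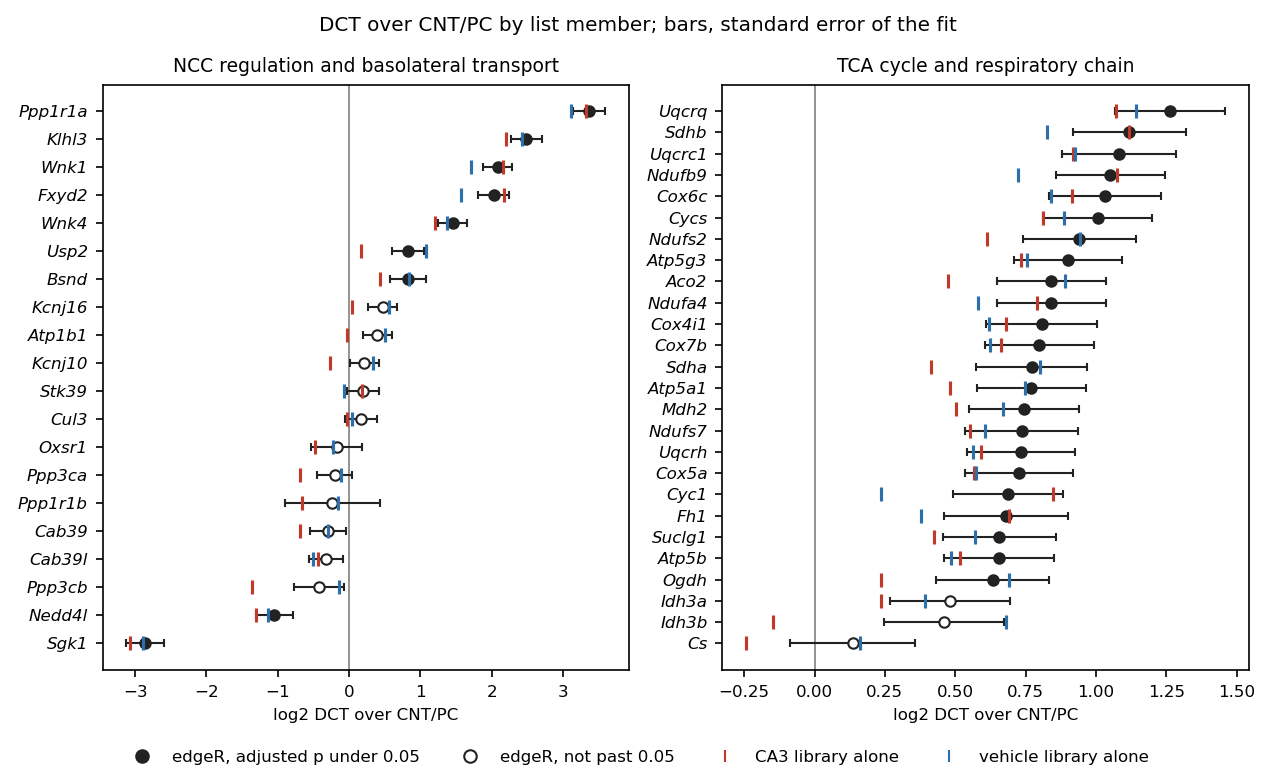
Fitted log2 difference of DCT over CNT/PC cells with its SE for 20 genes of the WNK, SPAK and NCC list and the 26 genes of the tricarboxylic acid cycle and respiratory chain list, filled where the edgeR adjusted p was below 0.05, with a tick for each library alone, scaled by total UMIs without TMM. Of the 20 genes plotted from the first list 7 were higher and 2 lower, and in the second list 23 were higher and none lower.

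Lists of stress, injury and repair genes were read against the same 6.5% higher and 6.75% lower over all genes. Of 18 tested immediate early genes 12 were lower and 0 higher (6 and 0 with DESeq2), and the median log2 difference was -1.19. Egr1 had 239 CPM with CA3 and 219 CPM with vehicle in DCT cells, against 871 and 1426 CPM in CNT/PC cells, and Fos had 778 CPM with CA3 and 772 CPM with vehicle against 1706 and 2587 CPM. Among 15 tested injury and repair genes 9 were lower and 2 higher (3 and 0 with DESeq2). The lower ones included the keratins Krt7, Krt8, Krt18 and Krt19, the claudin Cldn4 and Anxa2, which uninjured collecting duct epithelium also makes. The higher ones were Sox9 and Cp, with Cp in 2 cells of the CA3 library and 1 of the vehicle library. The libraries differed in direction for Cp, which had 20 UMIs in DCT cells against 1 in CNT/PC cells with CA3 and 1 against 5 with vehicle, so its call rests on the CA3 library. Without the barcodes holding other cells' RNA 8 of 14 injury genes were lower and 1 higher. Havcr1, the proximal injury marker KIM-1, had 0 UMIs in DCT cells of both libraries. Of 23 tested haem, iron and antioxidant genes 3 were higher and 1 lower (2 and 0 with DESeq2). The iron store ferritin heavy chain Fth1 had 7558 CPM with CA3 and 6988 CPM with vehicle against 2337 and 2797 CPM (1.66 ± 0.21 SE), and the transferrin receptor Tfrc had 360.2 CPM with CA3 and 353 CPM with vehicle against 89.6 and 78.5 CPM (2.25 ± 0.23 SE). Sod2 was higher and Gstm1 lower with edgeR alone, and without the barcodes holding other cells' RNA 2 of the 23 were higher and 1 lower. Of 16 heat shock genes 1 was higher (Hspe1) and 1 lower (Dnajb1), neither with DESeq2, which is about the share over all genes. Of 16 YAP and TAZ targets Cyr61 was higher and Ptpn14, Amotl1, Amotl2 and Rbms3 lower, none with DESeq2, and without the barcodes holding other cells' RNA 2 were higher and 2 lower. Of 10 cell cycle and p53 genes 1 was higher, Cdkn1a, with 55.0 CPM with CA3 and 43.4 CPM with vehicle against 28.5 and 18.1 CPM, again not with DESeq2.

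DCT cells divided by S100g and Pvalb. A cell was called S100g-high at 50 or more S100g UMIs per 10000, a limit chosen after the values were seen, and the remaining cells were split by the presence of a Pvalb UMI. In the CA3 library 21 cells were S100g-high (33.3%), 19 were Pvalb-positive and S100g-low (30.2%) and 23 were neither (36.5%). In the vehicle library the numbers were 21 (37.5%), 25 (44.6%) and 10 (17.9%). Only 5 and 3 cells were both S100g-high and Pvalb-positive. The neither class depends on depth: with each cell thinned to 1000 UMIs it held 44.4% with CA3 and 32.1% with vehicle, with exact 95% intervals of 31.9 to 57.5% and 20.3 to 46.0%. At that depth a Pvalb UMI was found in 22.2% of DCT cells with CA3 and 30.4% with vehicle, with intervals of 12.7 to 34.5% and 18.8 to 44.1%. These intervals overlapped, and a difference between libraries was not detectable at this number of cells. S100g lay between 25 and 100 in 10 cells of the CA3 library and 7 of the vehicle library. S100g RNA was in 85.3% and 76.4% of proximal barcodes too, so its presence alone did not mark a class of cells. Whether the limit of 50 separates high cells from the level in proximal barcodes was not tested.

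Several calcium and sodium transport genes were higher in S100g-high than in Pvalb-positive, S100g-low cells in both libraries. Slc8a1 had 872 CPM in S100g-high cells of the CA3 library against 47.9 CPM in Pvalb-positive, S100g-low cells, and 1457 against 93.1 CPM in the vehicle library. Calb1 had 16594 against 2649 CPM with CA3 and 15870 against 3241 CPM with vehicle. Klk1 had 17030 against 1093 CPM with CA3 and 15936 against 828 CPM with vehicle. The cells that were neither had 5024 CPM of Klk1 with CA3 and 19250 CPM with vehicle, above S100g-high cells in the vehicle library. Of the 71741 UMIs of these vehicle cells, however, 40905 lay in the 1 barcode with 327 Slc12a1 UMIs. The part of that barcode in the Klk1 and Hsd11b2 levels of the class was not tested. Trpv5 had 128 against 0 CPM with CA3 and 186 against 0 CPM with vehicle, and Scnn1b had 171 against 16.0 CPM and 239 against 23.3 CPM. Hsd11b2, the enzyme that shields the mineralocorticoid receptor from glucocorticoids, had 462 against 7.98 CPM with CA3 and 708 against 0 CPM with vehicle. Cells that were neither had 41.2 and 501.8 CPM. Hsd11b2 UMIs were found in only 11 of 63 DCT cells with CA3 and 7 of 56 with vehicle. Its levels therefore rested on few cells and were not shown to be common to S100g-high cells. The prostaglandin E synthase Ptges and the T-box factor Tbx2 were also higher in S100g-high than in Pvalb-positive cells. Scnn1a, with 188 against 223 CPM with CA3 and 310.0 against 259 CPM with vehicle, and the calcium pump gene Atp2b1, with 111 against 176 CPM and 173 against 179.5 CPM, did not follow. Of the genes higher in S100g-high cells, Slc8a1, Calb1 and Trpv5 are known in mice as markers of the late DCT and connecting tubule.

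Other genes were higher in Pvalb-positive, S100g-low cells. Trpm6 had 423 CPM in them with CA3 against 145 CPM in S100g-high cells, and 392.2 against 226 CPM with vehicle. Egf had 3096 against 479 CPM with CA3 and 5235 against 1311 CPM with vehicle. Cells that were neither had 1112 CPM of Egf with CA3 and 11583 CPM with vehicle. Most Egf UMIs behind that vehicle value lay in the barcode with 327 Slc12a1 UMIs. Col5a2 had 168 against 0 CPM with CA3 and 133 against 4.43 CPM with vehicle. In cells that were neither Col5a2 had 164.7 CPM with CA3 and 446 CPM with vehicle, so it was not particular to Pvalb-positive cells. The creatine kinase Ckb had 686 against 68.4 CPM with CA3 and 701 against 66.4 CPM with vehicle. Slc12a3 stood at 11060 against 9806 CPM with CA3 and 13528 against 9626 CPM with vehicle. Wnk4 had 535 against 470.2 CPM with CA3 and 661 against 571 CPM with vehicle. Of 3895 genes with at least 40 UMIs, 47 were at least 2 times higher and 60 at least 2 times lower in S100g-high than in other DCT cells in both libraries. The same cells gave the split and the values, so these counts are a description with no test.

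**Figure D4:**
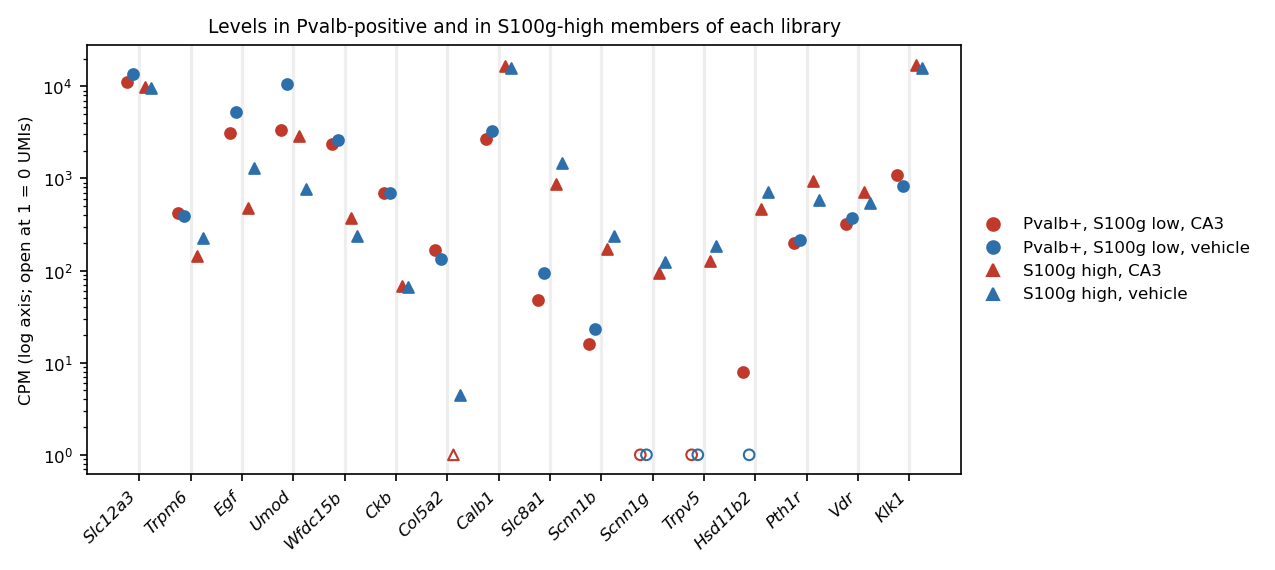
Summed level in CPM (log axis) of 16 genes in Pvalb-positive, S100g-low DCT cells (circles; 19 with CA3, 25 with vehicle) and S100g-high DCT cells (triangles; 21 in each library), CA3 in red and vehicle in blue. Slc8a1, Calb1 and Klk1 lay higher in S100g-high cells and Egf, Col5a2 and Ckb higher in Pvalb-positive cells in both libraries.

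CA3 and vehicle were then compared within DCT cells. DCT cells made up 3.86% of barcodes in the CA3 library (2.98 to 4.92%, exact binomial interval) and 2.94% in the vehicle library (2.23 to 3.81%). The ratio was 1.31 with an interval of 0.901 to 1.92, which includes no difference at this depth. Outside the proximal tubule the shares were 14.1% and 12.6%. Over 3724 genes with enough UMIs, the ratio of summed CPM was at least 1.5 times higher with CA3 for 304 (8.16%) and at least 1.5 times lower for 374 (10.0%). When the minimum was raised to 100 UMIs, 38 and 58 of 1470 genes were past that fold. Without the barcodes holding TAL, endothelial or intercalated RNA, 300 genes were past it higher and 368 lower. The median log2 ratio was -0.02. Of the genes past 1.5-fold, 229 of the higher and 367 of the lower were still past it without the 3 highest cells per library for that gene. With 1 library per treatment, library and treatment cannot be told apart.

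Among genes higher with CA3, Ly6c1, a glycosylphosphatidylinositol-anchored surface protein found on endothelial cells and leukocytes, had 212 CPM in DCT cells of the CA3 library (77 UMIs in 49.2% of cells) and 31.8 CPM in those of the vehicle library (19 UMIs in 25%). The ratio was 6.67 (3.996 to 11.7). Endothelial markers were higher in DCT cells of the CA3 library too, and without the barcodes holding other cells' RNA the Ly6c1 ratio was 4.69, with 5.63 when the 3 highest cells were left out. The ratio of Ly6c1 was 2.59 (1.28 to 5.52) in CNT/PC cells and 0.736 (0.441 to 1.21) in proximal barcodes. AC166344.1, a protein-coding gene on chromosome 14, had 143 CPM with CA3 (52 UMIs) and 11.7 CPM with vehicle (7 UMIs), a ratio of 12.2 (5.53 to 31.9). Its 3 highest cells held 55.8% of its UMIs with CA3 and 57.1% with vehicle. Pck1, the gluconeogenic enzyme of the proximal tubule, had 93.5 CPM with CA3 and 25.1 CPM with vehicle, a ratio of 3.73, beside the higher sum of proximal markers with CA3. B2m, the light chain of MHC class I, had 151 CPM with CA3 and 60.2 CPM with vehicle, a ratio of 2.51, and 56.4% of its CA3 UMIs lay in 3 cells. Without the barcodes holding other cells' RNA the B2m ratio was 1.36, and with cells thinned to 1000 UMIs it was 1.04. The others named by the same rule, Rhob, Apbb2, Ogfrl1, Tpgs1, Pip5k1a, Sp3os, Stub1 and Map3k3, rested on 20 to 41 UMIs in the CA3 library and 8 to 28 in the vehicle library. Their ratios ran from 2.41 for Stub1 to 4.52 for Rhob, and with every cell given equal weight Ogfrl1 turned to 0.932.

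Among genes lower with CA3, Egf had 1592 CPM in DCT cells of the CA3 library and 4515 CPM in those of the vehicle library, a ratio of 0.353 (0.322 to 0.386). The ratio was 0.373 without the 3 highest cells and 0.509 without the barcodes holding TAL, endothelial or intercalated RNA. It was 0.365 within S100g-high cells, 0.591 within Pvalb-positive, S100g-low cells and 0.0960 within the rest. Most of the 831 Egf UMIs of the rest in the vehicle library lay in the barcode with 327 Slc12a1 UMIs. The 0.0960 therefore rested largely on that barcode, and the ratio of the rest without it was not tested. Egf stood at a ratio of 0.670 (0.572 to 0.783) in CNT/PC cells and 0.908 (0.868 to 0.95) in TAL cells. In proximal barcodes, which should not make Egf, its ratio was 0.414 (0.359 to 0.477). Umod had 2909 CPM with CA3 and 6839 CPM with vehicle in DCT cells, a ratio of 0.425 (0.397 to 0.455), and 0.715 without cells high in Slc12a1 and Umod. The Umod ratio was 3.69 in S100g-high cells and 0.320 in Pvalb-positive, S100g-low cells. Of the 334 Umod UMIs in S100g-high cells of the CA3 library, however, most lay in a barcode of 15717 UMIs. The 3.69 therefore rested largely on that barcode, and the ratio without it was not tested. The Umod ratio was 1.005 (0.981 to 1.03) in TAL cells, which make Umod, and 0.367 (0.338 to 0.398) in proximal barcodes. Thus Egf and Umod RNA in proximal barcodes, read there as background, was lower in the CA3 library by about the same factor as in DCT cells. The part of that background in the DCT values was not tested.

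The sodium-calcium exchanger gene Slc8a1 had 333 CPM with CA3 (121 UMIs) and 627 CPM with vehicle (375 UMIs), a ratio of 0.531 (0.429 to 0.653), and 0.599 (0.475 to 0.750) within S100g-high cells. The cyclin Ccnd1 had 165 CPM in CA3 DCT cells, 41.3% of which held it, and 328 CPM in vehicle DCT cells, 69.6% of which held it, a ratio of 0.504 (0.370 to 0.677), whereas its ratio was 1.47 (1.16 to 1.86) in CNT/PC cells. With cells thinned to 1000 UMIs the Ccnd1 ratio in DCT cells was 0.978. Klf15, a zinc finger factor regulated by glucocorticoids, had 3 UMIs with CA3 and 32 with vehicle, 8.25 and 53.5 CPM, a ratio of 0.154. The tubulin gene Tuba1c had 44.0 CPM with CA3 and 119 CPM with vehicle, found in 15.9% and 53.6% of cells, a ratio of 0.371. Nsrp1, Zfp592, Thoc2 and Arhgef5 had between 5 and 28 UMIs with CA3 and 33 to 104 with vehicle, and with thinned cells Arhgef5 stood at 0.889 and Thoc2 turned to 1.56. Slc12a1 and Aqp2 were lower with CA3 too, but 98.0% and 88.9% of their vehicle UMIs lay in 3 cells. The Slc12a1 ratio was 0.916 without the barcodes holding other cells' RNA and turned to 1.68 without cells high in Slc12a1 and Umod, and the Aqp2 ratio was 0.813 at a Slc12a3 limit of 10.

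Gene lists were read against the 8.16% of all genes past 1.5-fold higher with CA3 and the 10.0% past it lower. Of 20 NCC regulators with enough UMIs 0 were past 1.5-fold higher and 3 lower (Cab39, Ppp3cb and Nedd4l). Of 11 magnesium genes 3 were lower, namely Egf, Umod and Ptp4a1, and of 10 calcium genes 3 were lower, namely Slc8a1, Trpv5 and Atp2b4. Of 7 aldosterone, ENaC and potassium genes 4 were lower: Scnn1b at 0.629, Nedd4l at 0.595, and Hsd11b2 and Aqp2, which chose the CNT/PC cells. Without the 3 highest cells per library the Hsd11b2 ratio turned to 4.25. Trpm6 had 248 CPM with CA3 and 297 CPM with vehicle and Wnk4 478 CPM with CA3 and 578 CPM with vehicle, neither past 1.5-fold. Of 15 transcription factors 3 were lower, Tfcp2l1, Gata3 and Esrrg. Of 26 genes of the tricarboxylic acid cycle and respiratory chain and 14 glycolysis genes none passed 1.5-fold in either direction. Their median log2 ratios were 0.08 and 0.08, against -0.02 over all genes. All of the 26 and most of the 14 had at least 100 UMIs in DCT cells. At that minimum the share of all genes past 1.5-fold was much smaller, as given above, so these lists were not shown to be unusually stable. The 3 YAP and TAZ targets with enough UMIs were not past it either, and the median log2 ratio of the 10 with at least 20 UMIs was 0.52, and -0.60 without cells high in Slc12a1 and Umod. Of 14 immediate early genes Jun, Ier2 and Klf6 were higher, at ratios of 1.69, 1.65 and 1.88, and Dusp1 and Gadd45b lower. Without the 3 highest cells the ratios of Jun, Ier2 and Klf6 were 0.878, 0.802 and 0.830, so their direction rested on a few cells, and 3 of them held 71.3% of the Jun UMIs of the CA3 library. Of 8 injury genes Cldn4 was higher and Krt7 lower. Lcn2, the injury marker NGAL, had 126 UMIs in 3 DCT cells of the CA3 library and 22 UMIs in 5 of the vehicle library. Of 18 haem and iron genes 1 was higher, the iron exporter Slc40a1, with 77.0 CPM with CA3 and 38.4 CPM with vehicle, and of 13 heat shock genes 1, Hsph1, with 132 CPM with CA3 and 78.5 CPM with vehicle. Among 5 cell cycle genes Ccnd1 was the lower one. Of markers of neighbouring segments, 5 of 6 CNT and PC markers were lower and 3 of 5 proximal markers higher.

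**Figure D5:**
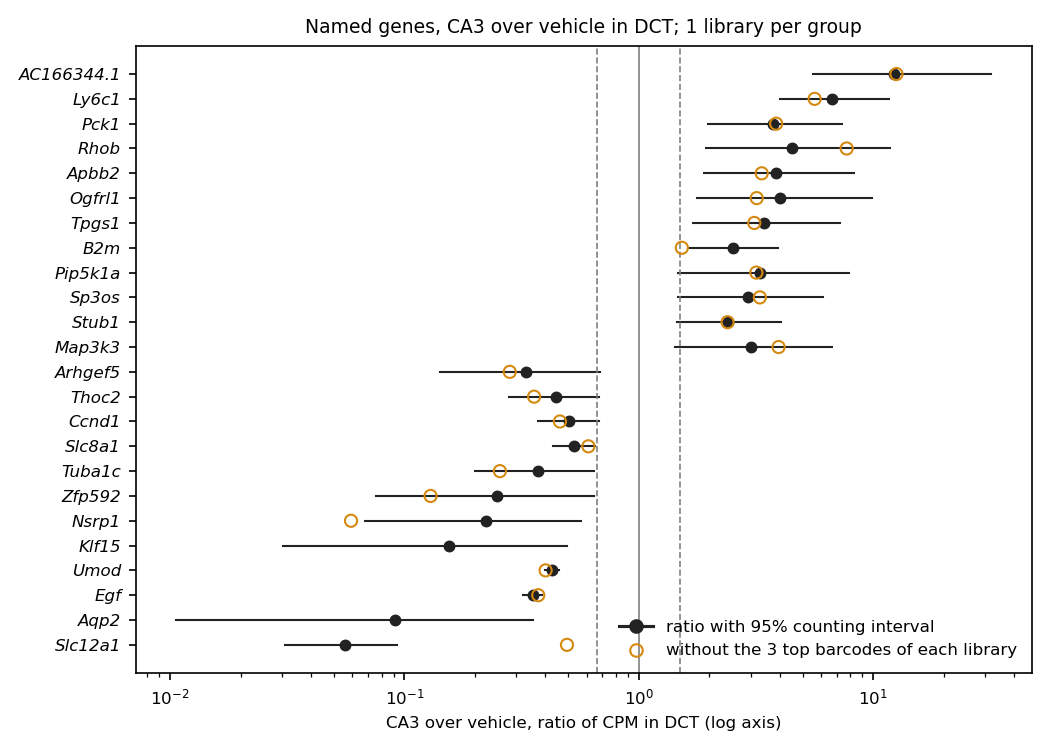
Ratio of summed CPM, CA3 over vehicle in DCT cells (log axis), with its 95% counting interval for the 12 genes named higher and the 12 named lower, and in open orange the ratio without the 3 highest cells per library for that gene. Ly6c1 stood at 6.67 and Egf at 0.353, and Aqp2 and Klf15, whose ratio without those cells was 0, have no open mark.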

How the data were processed

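Per the labels' protocols, single-cell suspensions of kidney were run on a 10x Chromium instrument as 3′ libraries and sequenced on an Illumina NextSeq500. Cell Ranger 3.0.1 and the build mm10 are named in the submitters' processing notes. The deposited values are raw UMI counts per gene and barcode, in the authors' matrices of 31058 features and 3691 barcodes. Whole barcodes were gated as described, no doublet caller was run, and the 13 mitochondrially encoded genes were left out of totals. Counts were summed per class and library: DCT sums held 363703 and 598436 UMIs. DCT and CNT/PC sums were fitted in R 4.3.3 with edgeR 4.0.16 (TMM, glmQLFit and glmQLFTest, library block, at least 20 UMIs, Benjamini-Hochberg over all genes), with DESeq2 1.42.0 as an alternative. CA3 over vehicle ratios used exact conditional binomial intervals in Python 3.11.15 with numpy 2.4.6, pandas 2.3.3 and scipy 1.17.1, for genes with at least 30 UMIs, and at least 50 CPM and detection in 10% of DCT cells in the higher library. Figures used matplotlib 3.10.9. The steps were tested on simulated data. UMIs of cells in 1 library are not independent samples, and intervals and floors (3 UMIs) cover counting error only.

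The members, gene lists and tests were chosen with earlier results of these data known. Named genes were up to 12 per direction. For DCT over CNT/PC these were the called genes with the same direction in both libraries, at least 50 CPM in the higher class and the largest log2 difference in the library where it was smaller. For CA3 over vehicle they were genes past 1.5-fold with and without their 3 highest cells, ranked by the interval bound nearest 1. Mitochondrially encoded genes, ribosomal protein genes and predicted genes known by a Gm number or Rik code were left out of both. All members of a list could be named, but some members that enter the list counts are not reported here. Alternatives changed the gate, the filter, the scaling, the weight of cells and the tool. Leaving out barcodes with TAL, endothelial or intercalated RNA was chosen after seeing the data, as was the S100g limit. Gene positions are from GENCODE (GRCm38) and promoter sequences from RefSeq (GRCm38.p6). Reads of overlapping or near-identical genes could not be told apart in the counts.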

Additional observations from a re-analysis of the deposited data

How the results depend on the processing

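The DCT share ratio of CA3 over vehicle lay between 1.18 and 1.35 under every gate tried. In DCT over CNT/PC, DESeq2 called 117 genes higher and 101 lower, against 591 and 614 with edgeR, and a minimum of 100 UMIs gave 475 and 406. DESeq2 gave no adjusted p for 2645 genes, and Ank2 (0.53), Aqp4 (0.595), Aqp3 (0.0617) and Tmem150c (0.927) missed its threshold. In CA3 over vehicle, the number higher was 503 with every cell given equal weight, 70 with cells thinned to 1000 UMIs (538 genes with enough UMIs) and 38 at a minimum of 100 UMIs, against 304. The number lower was 586 without the 50 highest genes in the total, 38 with thinned cells, 674 without each gene's 3 highest cells and 58 at a minimum of 100 UMIs, against 374; thinning and the higher minimum leave fewer genes, and the cause of the other shifts was not tested.

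Of 214 ratios of named genes under alternatives, 201 kept their direction and side of 1.5-fold and 10 only their direction. One alternative left out each gene's 3 highest cells, which the genes had to pass to be named. Agreement under that alternative was therefore fixed in advance. The reversed ones were Ogfrl1 at 0.932 with equal weight, Slc12a1 at 1.68 without cells high in Slc12a1 and Umod, and Thoc2 at 1.56 with thinned cells. Median log2 ratios of lists that moved by more than their spread were, with thinned cells, -0.39 for DCT markers, -0.0421 for NCC regulators, -0.0685 for the aldosterone list, 0.33 for glycolysis and 0.20 for the respiratory list. Without each gene's 3 highest cells they were -0.36 for DCT markers and -0.81 for immediate early genes, where the median over all genes was -0.15. TAL markers stood at -0.50 with equal weight. Proximal markers stood at 0.92 under the stricter barcode filter (500 genes, 50% mitochondrial UMIs), 1.24 without cells high in Slc12a1 and Umod and 0.996 without barcodes of other cells' RNA. YAP and TAZ targets stood at -0.60 without cells high in Slc12a1 and Umod. The median over all genes was -0.06 without the 50 highest genes, 0.01 with equal weight and 0.08 with thinned cells.

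No paired analysis was possible because each treatment had 1 library. With either library left out no residual degrees of freedom remain for DCT over CNT/PC, so these were values with no test. Depth limits the CA3 comparison: most genes had too few UMIs in 63 and 56 cells to bound a change of 1.5-fold.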
